A study of Mus musculus with 2 samples.

Results

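The Mir297, Mir466, Mir467 and Mir669 microRNA (miRNA) genes are rodent families derived from repeats, most of them packed into a single intron of Sfmbt2, and they were followed here in the newborn mouse heart. A member was any gene row whose symbol is a family name alone or with a letter or a hyphen after it and no further digit, which gave 69 of 1973 rows. They fall into 6 Mir297, 25 Mir466, 17 Mir467 and 21 Mir669 rows. The series held 1 group of 2 libraries of small RNA with inserts under 30 nt, made from total RNA. Each came from the single heart of 1 B6NCrl pup on postnatal day 0, pup 2 for replicate 1 and pup 3 for replicate 2, both of pregnant female 1. No treatment or allele is labelled, and sex was not collected, so no conditions can be compared. What can be asked is which of the repeated loci gave reads in the heart, at what level, and how far 2 litter mates differed.

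Sfmbt2 encodes a Polycomb group protein and is an imprinted gene that is expressed from the paternal copy, with a known role in the placenta. A miRNA is cut from a hairpin precursor, and bases 2 to 8 of the mature strand, the seed, direct it to messenger RNAs. Because these families arose by duplication of short repeats, many loci carry the same or nearly the same hairpin, and a short read can match several of them. Such reads are counted for no gene in these tables.

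The repeat character is visible in the mature sequences. RefSeq (build GRCm38.p6) gave a mature sequence for 8 of the 69 members, all of them outside Sfmbt2, and they are shown to make the alternating runs and the seeds visible. Each is written 5′ to 3′ on the strand of its gene, with the seed in capitals:
miR-466i-3p, chr13:17747552-17747573, plus strand: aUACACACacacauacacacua
miR-466j, chr10:60960802-60960824, plus strand: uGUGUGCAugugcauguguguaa
miR-466k, chr3:85467396-85467418, plus strand: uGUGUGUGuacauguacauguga
miR-466q, chr3:28419988-28420007, plus strand: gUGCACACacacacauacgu
miR-467f, chr11:69635419-69635439, minus strand: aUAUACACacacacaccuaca
miR-467g, chr5:34732872-34732892, minus strand: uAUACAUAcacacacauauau
miR-467h, chr9:115381898-115381919, plus strand: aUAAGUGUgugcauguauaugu
miR-669n, chr3:115979905-115979924, plus strand: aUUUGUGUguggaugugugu

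No 2 of these 8 share a seed. The seed of miR-467h also occurs in miR-668-5p, and the seeds of the other 7 occur in no other mature entry of the table. No entry was matched to the 59 members inside Sfmbt2, so whether any of these seeds recurs among them could not be seen. The run UGUGUG is in 4 of the 8 and the run ACACAC in the other 4. Over all 1738 mature entries the shares are 1.61% for UGUGUG and 0.633% for ACACAC. The mature sequences were searched as printed, and the reverse complement of UGUGUG is the run ACACAC shifted by 1 base. Over its whole length, 7 of the 8 occur in no other annotated miRNA gene, and that of Mir467h lies also in the predicted genes Gm25510 and Gm26303. Of these 8 genes only Mir466q was counted at all, with 0 counts in replicate 1 and 3 in replicate 2.

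In the annotated precursors the same runs are common. TGTGTG was present in 64 of the 69 member precursors (92.8%) and ACACAC in 46 (66.7%), against 14.3% and 8.99% of the 1825 other matched miRNA genes. Both runs stood together in 41 member precursors (59.4%), against 6.63% of the others. The strand of the gene was searched, where a run of the other strand appears as the partner run shifted by 1 base. Precursors were 54 to 127 nt long in the members and 46 to 442 nt in the others. These shares describe letters in the annotation and say nothing of a function.

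Out of 5052766 and 7441784 reads, the libraries held 2323450 and 3487183 sense-strand miRNA gene counts. Levels are given as CPM, a gene's sense count per 1000000 sense counts, and errors are the SD between pups (n = 2). Reads aligned to several places made up 36.6% of reads in replicate 1 and 37.1% in replicate 2, and were assigned to no gene. Of the heart muscle miRNAs, Mir208a, Mir208b and Mir499 lay between 4737 and 70139 CPM in each library, while Mir1a-1 and Mir133a-1 lay between 5.45 and 8.61 CPM. These values leave out any reads of the same miRNAs that aligned to several places, so a low value does not show a low level. The 9 epithelial miRNAs looked at (Mir200 genes, Mir141, Mir429, Mir375, Mir205, Mir203 and Mir449a) had sums of 408 and 1563 CPM in replicates 1 and 2. The neuronal Mir124a-1 and Mir9-2 were at 0 in both libraries. Their zeros also leave out any reads aligned to several places, so they do not show that these miRNAs were absent. The reads carry no molecular identifiers, so the exact Clopper-Pearson 95% intervals and the floors given here cover only counting error. The floor for a count of 0 was set at 3 counts, equal to 1.29 CPM in the first library and 0.860 CPM in the second.

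Only a small part of the 69 loci accounted for the reads. Of the members, 13 had any sense count in either heart (18.8%), against 31.2% of all gene rows. Those at 2 CPM or more in both hearts numbered 8 (11.6%), against 16.6% of all gene rows. The members together had 2920 sense counts in replicate 1 and 4650 in replicate 2, which is 0.126% (exact Clopper-Pearson 95% interval 0.121% to 0.130%) and 0.133% (0.130% to 0.137%) of the library, or 0.130% ± 0.00542 (SD, n = 2). The sum was 1295 CPM ± 54.2 (SD, n = 2). In bulk tissue, a low level in many cells and a higher level in few cells cannot be told apart.

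Mir467 led the families. Its sum was 1003 CPM in replicate 1 and 1065 CPM in replicate 2, or 1034 CPM ± 44.0 (SD, n = 2), and made up 79.8% of member counts. Mir669 followed with 249 CPM and 264 CPM, or 256 CPM ± 10.6 (SD, n = 2), and 19.8% of member counts. Mir466, with the most loci, had 11 counts in replicate 1 and 14 in replicate 2, or 4.37 CPM ± 0.509 (SD, n = 2). Mir297 had 1 count and 2 counts, which is at or under the level that a count of 0 allows.

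The ratio of Mir467 to Mir669 was close to the same in both pups, at 4.03-fold. The log2 ratios were 2.01 and 2.01, with an SD of 0.00147. The Mir669 sum rested on 578 counts in replicate 1 and 920 in replicate 2. So small an SD from 2 pups therefore does not measure how exactly the ratio is known. Mir669 exceeded Mir466 by a log2 ratio of 5.88 ± 0.228 (SD, n = 2), or 58.8-fold. These orders hold for reads with a single place in the genome and may differ for the families as a whole, because how many of the reads aligned to several places came from each family is not recorded.

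Mir467e was the most abundant member, with 906 counts (390 CPM) in replicate 1 and 1428 counts (410 CPM) in replicate 2, a mean of 400 CPM ± 13.8 (SD, n = 2). It ranked 103 of the 1973 rows in each library. Mir467d had 831 counts (358 CPM) and 1368 counts (392 CPM), a mean of 375 CPM ± 24.5. Mir467e was above Mir467d in both hearts, by log2 ratios of 0.12 and 0.06 (0.09 ± 0.044, SD, n = 2), but their intervals overlapped in both libraries, so the order of these 2 genes was not resolved beyond counting error. Mir467c had 592 counts (255 CPM) and 918 counts (263 CPM), a mean of 259 CPM ± 5.98. It lay below Mir467d in both hearts, with intervals that did not overlap in either library (log2 ratio of Mir467d over Mir467c 0.53 ± 0.061).

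Among the Mir669 genes, Mir669o had 281 counts (121 CPM) and 435 counts (125 CPM), a mean of 123 CPM ± 2.69 (SD, n = 2). Mir669l had 179 counts (77.0 CPM) and 288 counts (82.6 CPM), a mean of 79.8 CPM ± 3.92. Mir669c had 105 counts (45.2 CPM) and 169 counts (48.5 CPM), a mean of 46.8 CPM ± 2.31. From Mir467c down to Mir669c each step was larger than the spread: neither the pups' ranges nor the intervals of neighbours in the order overlapped. Mir467c exceeded Mir669o 2.11-fold, Mir669o exceeded Mir669l 1.54-fold, and Mir669l exceeded Mir669c 1.70-fold. These 3 Mir669 genes and the 3 Mir467 genes together took 99.1% of member counts in each library, which left 26 counts in replicate 1 and 44 in replicate 2 for the other 63 members.

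A wide step separated these 6 from the rest. Mir669e had 9 and 17 counts (3.87 and 4.88 CPM), 10.8-fold below Mir669c. Mir466n, the only Mir466 gene at 2 CPM or more in both hearts, had 8 and 11 counts (3.44 and 3.15 CPM). Mir669h had 4 and 11 counts (1.72 and 3.15 CPM) and so fell just outside that limit. The intervals of Mir669e, Mir466n and Mir669h overlapped in both libraries, so their order was not resolved at this depth. Mir466h had 3 counts and 0, Mir297a-2 had 1 and 2, and Mir467b had 1 and 0. The values of Mir466h, Mir297a-2, Mir466q and Mir467b were all at or under 3 counts.

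**Figure D1:**
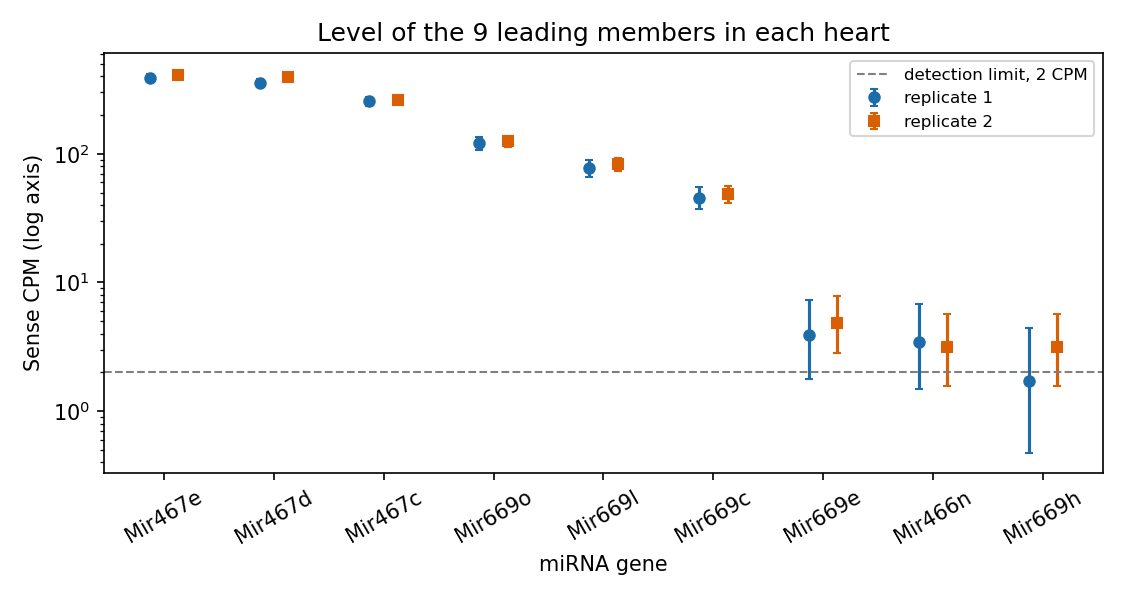
Sense CPM on a log axis for the 9 members with a mean of 2 CPM or more, with circles for replicate 1, squares for replicate 2 and bars for the exact Clopper-Pearson 95% interval of each library. The 6 leading genes lie between 45.2 and 410 CPM with near-equal values in both hearts, and Mir669e, Mir466n and Mir669h lie between 1.72 and 4.88 CPM with overlapping intervals.

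The members lie mainly in Sfmbt2 in the annotation, and nearly all counts did as well. Of the 69 members, 59 lie inside Sfmbt2 (chromosome 2, 10370510 to 10595253, plus strand, GRCm38), all 59 on its strand and none over an annotated exon. They span 51.6 kb, from 10466663 to 10518279, within an intron of 62.5 kb that is intron 10 of an annotated Sfmbt2 transcript of 23 exons. The share of member counts inside Sfmbt2 was 100% in replicate 1 (2920 of 2920, where a count of 0 outside allows up to 0.103%) and 99.9% in replicate 2 (4647 of 4650, exact Clopper-Pearson 95% interval 99.8% to 99.99%).

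The 10 members elsewhere had 0 counts in replicate 1 and 3 in replicate 2, all 3 from Mir466q, in an intron of Tnik on the strand of that gene. Mir466i lies in an intron of Cdk13, Mir466k in an intron of Gm37240, Mir467f in an intron of Fxr2, Mir467g in an intron of Grk4 and Mir669n in an intron of Slc30a7, each on the opposite strand of the host, and all 5 were at 0 counts. Mir297-1, Mir466f-4, Mir466j and Mir467h overlap no annotated gene other than their own and were also at 0.

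Within the intron the counted genes lay toward both ends of the member span. Mir669e, Mir669l and Mir467c lie 97.0, 98.5 and 103 kb from the annotated start of Sfmbt2. Mir467e, Mir467d, Mir669c, Mir466n, Mir669o and Mir669h lie from 135 to 148 kb. Between Mir467b and Mir467e, a stretch of 24.4 kb, 17 members (8 Mir467, 7 Mir466 and 2 Mir669) had 0 counts in both hearts, and 15 of the 17 had no stretch of 22 nt of their own, as described next.

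**Figure D2:**
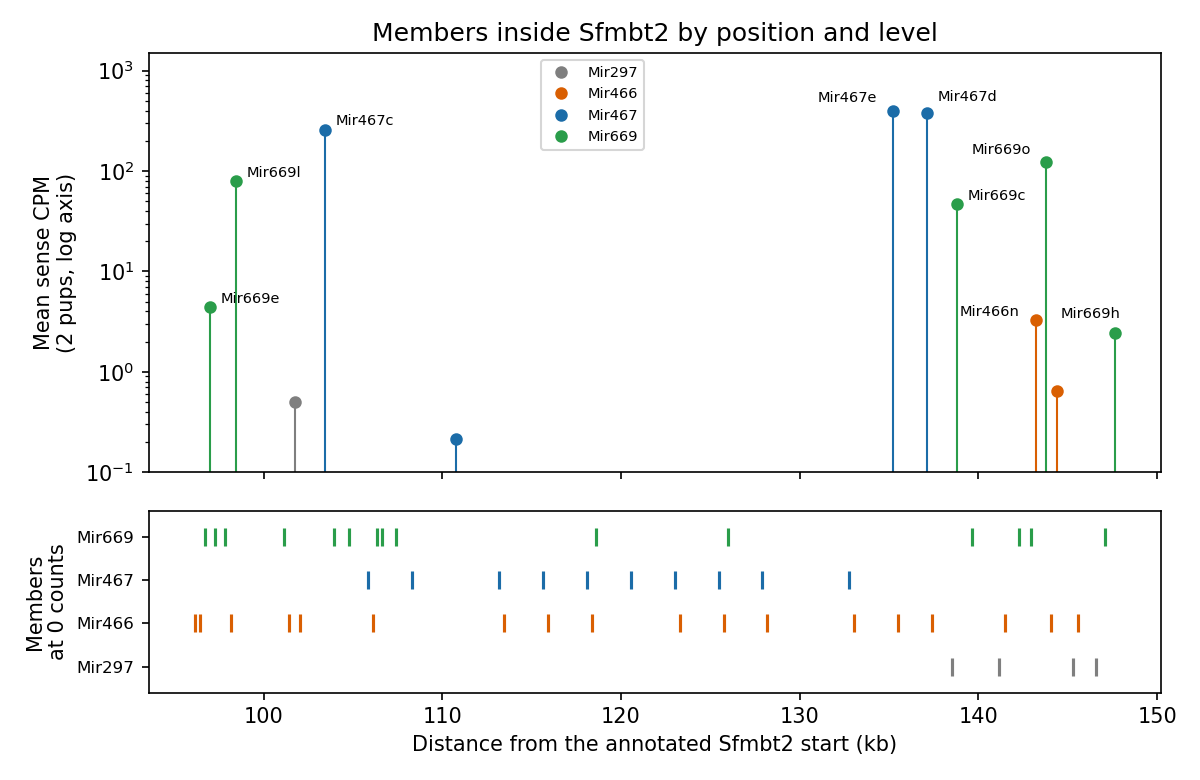
Mean sense CPM over 2 pups on a log axis (upper panel) and members at 0 counts as ticks by family (lower panel) against the distance in kb from the annotated Sfmbt2 start, for the 59 members inside the gene. The counted genes lie near 97.0 to 103 kb and 135 to 148 kb, with only Mir467b, at 1 count in all, in between.

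The loci are laid out as repeated units. Starts of neighbouring members were 417 bp apart in the median. Of the 14 Mir467 rows in Sfmbt2, 10 were followed by a Mir466 row as the next member, 282 to 292 bp downstream. In the pairs that begin with a Mir467a copy, both partners were at 0 in both hearts. The partners differed in the pairs of Mir467e and Mir467d. Mir467e had 906 and 1428 counts and Mir466p, 285 bp downstream, had 0 in both hearts. Mir467d had 831 and 1368 counts and Mir466, 288 bp downstream, had 0 in both. Mir669o had 281 and 435 counts, while Mir466n, 559 bp upstream, had 8 and 11 and Mir466g, 295 bp downstream, had 0. Some neighbouring hairpins of the same intron thus stood at very different read counts. The neighbours at 0 beside these counted genes were not alike in how far their sequence is their own. By the measure given further on, it was 42.6% for Mir466p, 44.2% for Mir466 and 100% for Mir466g.

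How far each locus can be told from the others was read from the precursor sequences. A window of 22 nt was called unique when it occurred in no other annotated miRNA gene on either strand and only once in its own precursor. A read of that length from any other window has an exact match in at least 1 further place. Of the 69 members, 20 had no unique window, and all 20 were at 0 counts in both libraries. They were all 10 Mir467a copies, Mir466b-4 to Mir466b-8, Mir466c-2, Mir669a-1, Mir669a-2, Mir669p-1 and Mir669p-2. A 22-nt read from these 20 had no single place and could not be counted, so their zeros were nearly fixed in advance. Among the 1825 other matched miRNA genes 234 had no unique window, and 232 of these were at 0 as well.

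The 13 members with a count all had unique windows, as the counting rule nearly requires, with a median of 59.1% of windows and a range of 21.2% to 96.9%. The 56 members at 0 had a median of 33.9% and a range of 0% to 100%. That median takes in the 20 with no unique window, so it is not one of members that could be counted. Of these 56, 36 had at least 1 unique window. Mir466g and Mir669n had unique windows throughout and were at 0 in both hearts, as were 477 of the 1008 other matched genes with unique windows throughout (47.3%). Mir466l (89.0%) and Mir669b (89.5%), both inside the Sfmbt2 intron, were at 0 too. Over all 69 the median was 38.1%, against 100% for the other genes. Places in the genome outside annotated miRNA genes were not searched, so a unique window here may still match elsewhere. The part of shared sequence in the zero counts was not tested.

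**Figure D3:**
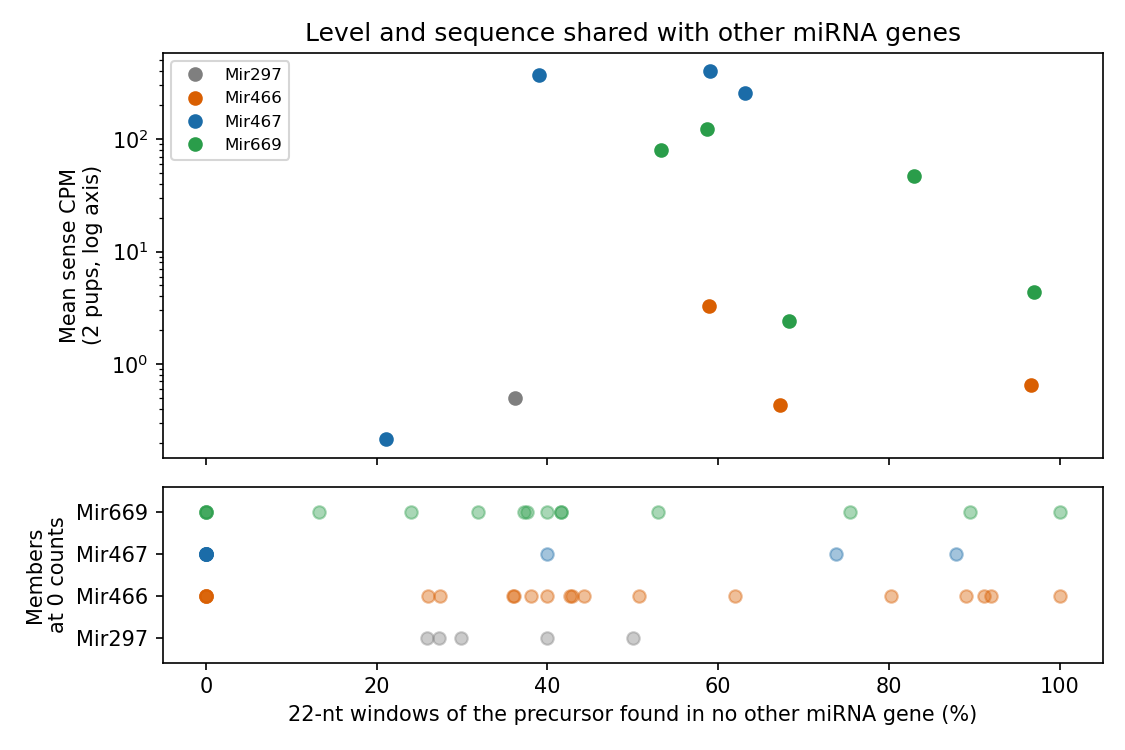
Mean sense CPM over 2 pups on a log axis (upper panel) and members at 0 counts by family (lower panel) against the percentage of 22-nt windows of the precursor found in no other miRNA gene. No member at 0% was counted, and a 22-nt read from such a member cannot be counted. Members with 0 counts extend up to 100%.

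Shared sequence also bears on the leading genes. Mir467e had unique windows at 59.1% of positions, Mir467d at 39.1% and Mir467c at 63.2%. Of 10 precursors compared in pairs, Mir467e and Mir467c shared a stretch of 48 nt, and Mir467d shared 55 nt with Mir467a-1. In Mir467d, windows on the front of the precursor were unique at 59.4% and those on the back at 18.8%. Mir669o (58.7%) shared 38 nt with Mir669a-1, Mir669l (53.2%) shared 22 nt with Mir467c, and Mir669c (83.0%) shared 30 nt with Mir669a-1. Counts are per gene and do not separate the arms of a hairpin, so which part of each precursor gave the reads is not recorded. The counts of all 6 are therefore uncertain as levels of the whole miRNA and leave out any read that matched a copy.

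Numbered copies, whose symbols end in a hyphen and a number, made up 34 of the 69 members. Only 1 of them, Mir297a-2, was counted, with 1 count in replicate 1 and 2 in replicate 2. Of the 34, 20 had no unique window and could hardly be counted. Of the 35 members with a symbol of their own, 12 were counted, and all 35 had at least 1 unique window. The 7 Mir466b, 4 Mir466f and 3 Mir669a copies that had a row all had 0 counts, and no Mir466f copy lacked unique windows. Mir466b-1 and Mir669a-4 to Mir669a-12 are annotated but had no row, so their counts are not known.

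**Figure D4:**
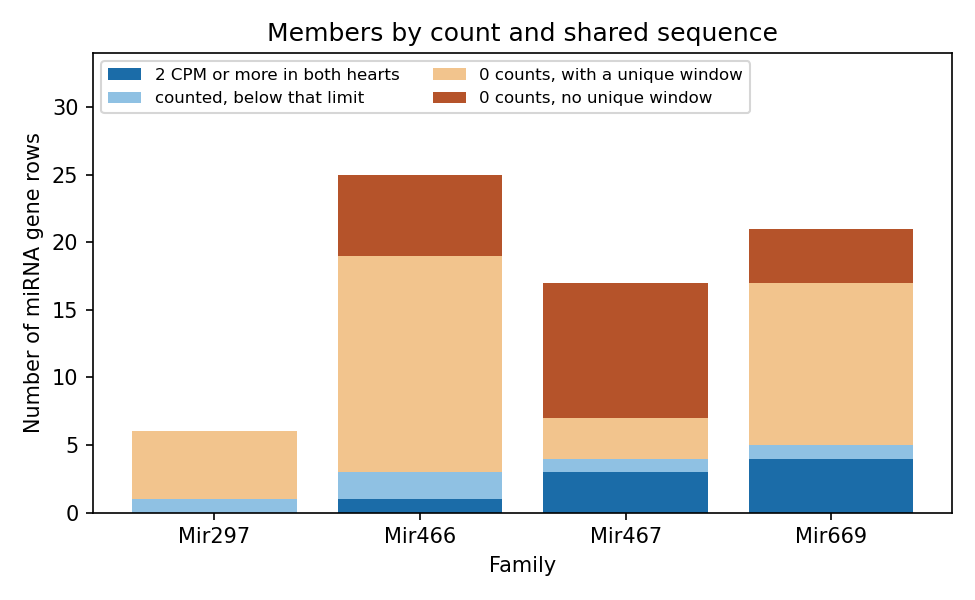
Number of gene rows per family, stacked by whether a member reached 2 CPM in both hearts, was counted below that limit, or had 0 counts with or without a unique window. Of the 17 Mir467 rows 3 reached the limit and 10 had 0 counts and no unique window, and of the 25 Mir466 rows 16 had 0 counts although a unique window was present.

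Another 48 miRNA gene rows inside Sfmbt2 do not carry a symbol of the 4 families, and all are predicted genes with a Gm symbol. Whether they are copies of the same repeats was not tested. The spacing of neighbouring members given above passes over them, and over any of the 12 annotated family genes without a row that lie there. They had 2 counts in replicate 1 and 3 in replicate 2 in all. Only Gm22072 (1 and 1), Gm22239 (0 and 2) and Gm25263 (1 and 0) were counted, and 26 of the 48 had a unique window.

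All member counts lay on the annotated strand. The opposite strand of the 69 rows had 0 counts in both libraries, which allows a share of up to 0.103% of member counts in replicate 1 and 0.0645% in replicate 2. Over all gene rows the opposite strand held 6.62% and 6.67% of counts. Among the 196 genes with 100 or more sense counts in both libraries, 185 (94.4%) had no opposite-strand count in either, and the 6 members in that group were all among them. A count of 0 on the opposite strand was thus the common case. No member overlaps another annotated miRNA gene.

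The 2 hearts gave nearly the same values for the members. The member sum was 1.06-fold higher in replicate 2 in CPM, and 1.05-fold with library sizes scaled by the trimmed mean of M values (TMM, edgeR). Each gene was tested by a two-sided exact binomial test on TMM-scaled sizes, adjusted after Benjamini and Hochberg over the 348 genes with 10 or more summed counts. The test compares these 2 libraries at counting error only. Of the 9 members tested 0 passed this exact test, and 0 had an unadjusted p under 0.05. Over all tested genes 27.9% were called, 17.8% as higher in replicate 2 and 10.1% as lower. The median log2 ratio of replicate 2 over replicate 1 was 0.08 in the 9 members and 0.03 over all 348 genes, on TMM scaling.

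Mir467d had the smallest p of the members (fold 1.08, 95% interval 0.994 to 1.18, adjusted p = 0.190, exact binomial test). The interval of Mir467e was 0.955 to 1.13 around 1.04, and that of Mir467c was 0.920 to 1.13 around 1.02. For Mir669o, Mir669l and Mir669c the folds were 1.02, 1.06 and 1.06, with intervals from 0.826 to 1.37 over the 3. At this depth a difference of 1.5-fold lay outside the intervals of all 6. For Mir669e (0.525 to 3.17), Mir466n (0.332 to 2.59) and Mir669h (0.537 to 7.80) a difference of that size was not detectable. In CPM, 8 of the 9 were higher in replicate 2 and Mir466n was lower, and 58.3% of all tested genes were higher. The 9 epithelial miRNAs had a sum 3.83-fold higher in replicate 2, much of it from Mir449a (35.7 and 742 CPM). Without Mir449a the sums were 372 and 820 CPM, a ratio of 2.21-fold. In the exact binomial test 7 of the 9 were higher in replicate 2, while Mir203 (1.16-fold in CPM, adjusted p = 0.122) and Mir200a (1.60-fold, adjusted p = 0.139) did not pass. The members' ratios lay between 0.916 and 1.83 in CPM, and between 1.03 and 1.10 for the 6 leading genes.

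**Figure D5:**
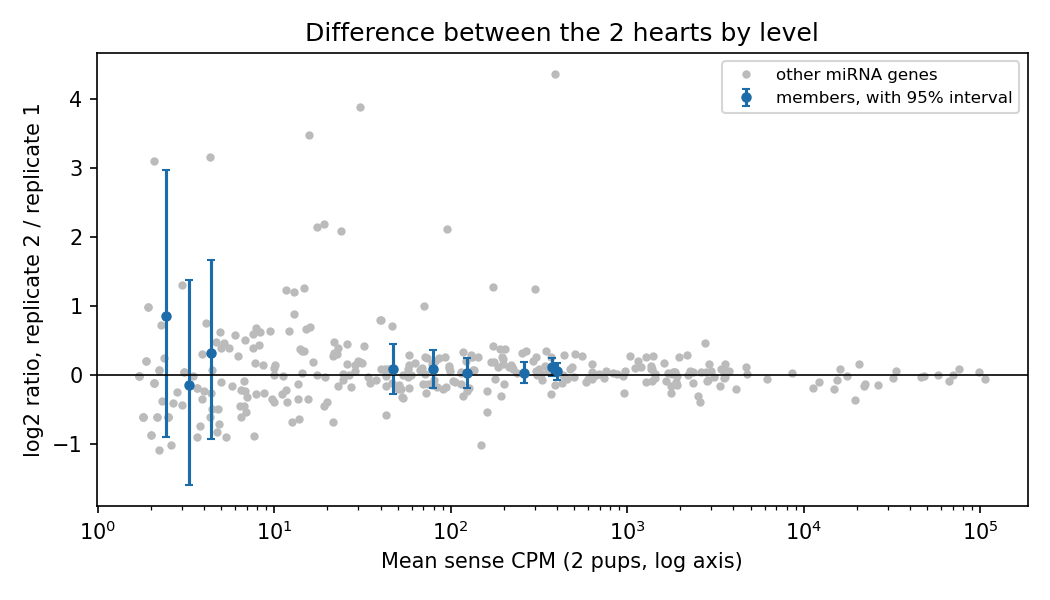
Log2 ratio of replicate 2 over replicate 1 on TMM-scaled counts against mean sense CPM (log axis) for 348 tested miRNA genes, with the 9 tested members in blue and their exact 95% intervals. The 6 leading members lie close to 0 with narrow intervals, and the 3 low members have intervals that include 0 and are wide.

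Against the sum of all 69 members (1257 and 1333 CPM), single miRNAs of other imprinted loci lay on both sides. Of the 9 looked at, 6 were above the member sum in both hearts, 2 were below it in both, and Mir296 was below it in one heart and above it in the other. Mir335, hosted by Mest, stood far above the rest with 72987 and 78677 CPM, which is 58.6-fold the member sum. Mir483, in Igf2, had 1908 and 1615 CPM. Of the Gnas region, Mir296 had 1249 and 1536 CPM and Mir298 had 1861 and 1689 CPM. The 4 genes of the Dlk1-Dio3 region spread widely: Mir411 had a mean of 3563 CPM ± 310, Mir127 of 2889 CPM ± 242, Mir379 of 1967 CPM ± 263 and Mir410 of 30.5 CPM ± 3.03 (SD, n = 2). Mir410 was thus 42.4-fold below the member sum. Mir675, in H19, had 59.0 and 59.6 CPM, 21.8-fold below the member sum and between the values of Mir669c and Mir669l. These comparisons are descriptions of reads assigned to single genes, and imprinting itself was not measured. The member sum leaves out reads aligned to several places. Members had a median of 38.1% unique windows, against 100% for the other matched genes, so the folds may differ for all reads.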

How the data were processed

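Reads of 2 newborn heart libraries had been counted by the authors. The deposited values were raw counts per miRNA gene, given for the sense strand, for the opposite strand and as their exact sum in each of 1973 rows. Per the file headers deposited with the tables, the assembly was mm10 and the annotation GENCODE M4. The aligner and counter are not given in the sources used here. The 4 summary rows were left out (unmapped 11.5% and 10.5% of reads, several places 36.6% and 37.1%, no feature 5.93% and 5.62%, ambiguous 0).

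Symbols, positions and precursors came from GENCODE M21, on the same assembly: 1894 rows matched, and the 79 others had 0 counts. Of 81 family genes there, 69 had a row. The closing section's log2 ratios used a pseudocount of 1 CPM. Whole mature sequences, planned for judging placement, matched 8 members only, so 22-nt windows of precursors were added after the data were seen. TMM came from edgeR 4.0.16, size factors from DESeq2 1.42.0 and exact tests, tested on simulated data, from scipy 1.17.1. The pups share a litter, so the spread does not cover litters, and animal and library cannot be told apart. Members and lists were chosen with earlier results of these data known. The rule named members averaging at least 2 CPM, the 3 leading members of each family, other miRNA genes in Sfmbt2, and fixed markers. Other members were named after their values were seen.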

Additional observations from a re-analysis of the deposited data

How the results depend on the processing

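No result changed its direction or its side of the test's threshold. With counts of both strands the member share was 0.121% in place of 0.130%, and the sums were 965 CPM for Mir467 and 239 CPM for Mir669. With all reads as denominator the member share was 0.0601%. These follow from the larger denominators. With any 18-nt stretch in place of the whole mature sequence, 1 of 8 members was unique in place of 7. The number of members with no unique window was 20 with windows of 22 nt and of 18 nt, a setting added after the data were seen. Members detected ranged from 6 (5 CPM, or 10 counts, in both hearts) to 9 (1 CPM in both, or 2 CPM in either), and from 8 to 9 with either library alone. Members called different between pups stayed at 0 under total-count scaling, DESeq2 size factors, no filter and counts of both strands. The log2 ratios of the 9 named members kept their sign under a pseudocount of 0.5 CPM, TMM and DESeq2 scaling. Leaving out either library gives the value of the other and leaves no test between pups. Restricting family and Sfmbt2 shares to members with an unshared mature sequence was not run, since 8 members had a sequence. No paired analysis was possible because the series has 1 group. Depth limits members with 17 or fewer counts, whose intervals span more than 2-fold.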
